A study of Mus musculus with 24 samples.

Results

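Cd27, Tnfrsf9 and 7 further genes of the tumour necrosis factor (TNF) receptor family were followed across 4 populations of natural killer (NK) cells sorted from mouse melanomas. The 9 genes were chosen by name from the 53465 gene identifiers of the count table, as receptors that lymphocytes use for co-stimulation or for sensing TNF and Fas ligand: Cd27, Tnfrsf9 (4-1BB), Tnfrsf4 (OX40), Tnfrsf18 (GITR), Tnfrsf1a and Tnfrsf1b (the receptors of TNF), Tnfrsf14 (HVEM), Tnfrsf25 (DR3) and Fas. All 9 were found, each under 1 identifier. Tumours of B16F10, a melanoma cell line of the B6 strain, had been implanted under the skin of the flanks of female wild-type B6 mice, and NK cells were taken from them on day 14. Every library came from 100 sorted cells. The sort split CD11b+ cells into CD11b+CD69- and CD11b+CD69+, and CD27+ cells into CD27+CD69- and CD27+CD69+, with 6 libraries for each of the 4 populations. Where 4 values stand in a row, they follow that order. The labels name no treatment, no NK cells from outside a tumour and no further gate, so CD11b on the CD27+ cells and CD27 on the CD11b+ cells are not given. They also do not say whether the 6 libraries of a population came from separate mice, so the spread behind each p-value is that between these samples and may be technical.

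Receptors of this family are trimerised by ligands on neighbouring cells and recruit TRAF adaptor proteins, through which co-stimulatory members such as CD27, 4-1BB, OX40 and GITR feed the NF-kB pathways. TNFR1, Fas and DR3 carry a death domain and can also engage caspases. In NK cells CD27 marks less mature cells and CD11b more mature ones, CD69 appears soon after activation, and 4-1BB is induced by activating signals.

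The genes lie on 3 chromosomes of the GRCm38 build (GENCODE M21 gene models). On chromosome 4 are 6 of the 9: Tnfrsf1b (145213463 to 145246870), Tnfrsf9 (150914562 to 150946102), Tnfrsf25 (152115934 to 152120119), Tnfrsf14 (154921933 to 154928563), Tnfrsf4 (156013843 to 156016612) and Tnfrsf18 (156026164 to 156028895). Only 9551 bases separate Tnfrsf4 from Tnfrsf18. Cd27 (125232622 to 125237010) and Tnfrsf1a (125349362 to 125362484) lie 112351 bases apart on chromosome 6, and Fas is on chromosome 19 (34290666 to 34327772). Proximity did not go with equal abundance: Tnfrsf4 had 144 counts over the 24 libraries and its neighbour Tnfrsf18 had 14112. An antisense gene, Gm16008, overlaps 414 exon bases of Tnfrsf18 and held 243 counts. The library chemistry keeps no strand, so reads in that overlap cannot be told apart.

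RefSeq start-site windows (GRCm38.p6), each from 250 bases before to 50 bases after an annotated start, were matched for all 9 genes and gave 11 windows. They are shown for the 3 genes whose levels set the populations apart most clearly, Tnfrsf9 with its 2 annotated starts, Cd27 and Tnfrsf1a. Capitals mark matches to 4 short motifs, chosen after the values were seen and searched on both strands: GGG and TTTCC with 2 bases between them (NF-kB-like), TGANTCA (AP-1-like), TTCNNNGAA (STAT-like) and TGTGGT (RUNX-like), none of which overlap here.
Tnfrsf9, chr4:150919905-150920204, plus strand: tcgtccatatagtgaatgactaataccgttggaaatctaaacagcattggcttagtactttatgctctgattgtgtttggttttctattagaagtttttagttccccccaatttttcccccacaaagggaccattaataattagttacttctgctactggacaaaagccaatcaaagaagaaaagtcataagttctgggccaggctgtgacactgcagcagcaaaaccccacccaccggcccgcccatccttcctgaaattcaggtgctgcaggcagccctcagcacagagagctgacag
Tnfrsf9, chr4:150927749-150928048, plus strand: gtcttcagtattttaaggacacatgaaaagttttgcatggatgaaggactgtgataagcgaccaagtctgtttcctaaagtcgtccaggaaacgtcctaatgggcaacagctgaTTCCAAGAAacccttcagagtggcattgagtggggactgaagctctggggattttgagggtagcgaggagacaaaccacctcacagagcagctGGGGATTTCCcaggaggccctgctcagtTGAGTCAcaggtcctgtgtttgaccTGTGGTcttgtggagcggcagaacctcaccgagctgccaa
Cd27, chr6:125236978-125237277, minus strand: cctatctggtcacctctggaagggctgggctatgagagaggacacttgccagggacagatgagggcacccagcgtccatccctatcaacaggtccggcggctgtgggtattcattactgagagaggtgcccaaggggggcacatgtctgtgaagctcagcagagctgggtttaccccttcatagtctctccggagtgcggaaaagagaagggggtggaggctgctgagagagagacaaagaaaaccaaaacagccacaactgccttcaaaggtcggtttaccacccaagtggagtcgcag
Tnfrsf1a, chr6:125349473-125349772, plus strand: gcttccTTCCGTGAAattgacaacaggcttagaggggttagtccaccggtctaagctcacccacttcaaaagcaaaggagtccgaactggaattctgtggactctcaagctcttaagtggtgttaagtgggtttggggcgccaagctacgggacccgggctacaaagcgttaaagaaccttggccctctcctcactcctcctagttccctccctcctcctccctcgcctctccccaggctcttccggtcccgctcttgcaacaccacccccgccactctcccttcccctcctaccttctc
The second Tnfrsf9 window held all 4 motifs, an NF-kB-like match beginning 43 bases and an AP-1-like match 15 bases before the start, a STAT-like match 136 bases before it and a RUNX-like match just after it. The other Tnfrsf9 window and that of Cd27 held none, and that of Tnfrsf1a held 1 STAT-like match. Among 32851 windows of this length, 1.63% held the NF-kB-like, 7.81% the AP-1-like, 8.3% the STAT-like and 16.8% the RUNX-like motif. Of the 11 windows of the 9 genes, 2, 2, 6 and 2 did in the same order, the STAT-like ones being those of Tnfrsf9, Tnfrsf1a, Tnfrsf1b, Tnfrsf18, Tnfrsf25 and Fas. A match describes the letters only, and which start was used in these cells was not measured.

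Libraries held between 1213914 and 2671533 counts. All 12 NK marker genes searched (Ncr1, Klrb1c, Gzma, Prf1 and others) had counts in every population, although melanoma is the labelled cell type. In library-scaled counts (CPM, counts scaled to library size), NK markers summed to 42040 to 48660 and 32670 to 40920 in the CD69- and CD69+ libraries of CD11b+ cells, and to 12160 to 21190 and 18040 to 21740 in those of CD27+ cells. The 8 fibroblast markers, such as Col1a1 and Dcn, all had counts in CD27+CD69- libraries, where they summed to between 294 and 9093 CPM. Only 3 of them had counts in CD11b+CD69- libraries and 2 in CD27+CD69+ libraries, with sums of at most 87.0 CPM, and CD11b+CD69+ libraries had none. CD27+CD69- replicate 6 stood apart, with the lowest total count, the lowest NK marker sum and 5826 CPM of the 7 melanoma markers. In bulk samples such as these, fewer cells of a type and less RNA per cell cannot be told apart.

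The 9 genes fell into 6 with a mean of at least 10 CPM over all libraries and 3 with fewer, Tnfrsf4, Tnfrsf14 and Tnfrsf25. Tnfrsf14 did not pass the filter on low counts, which left 8 of the 9 for testing. Tnfrsf9 was higher in CD69+ than in CD69- cells of both kinds and, at a given CD69 state, lower in CD27+ than in CD11b+ cells. Tnfrsf1a was lower in CD69+ than in CD69- cells among the CD27+ cells, with no such difference called among the CD11b+ cells. Cd27 and Tnfrsf18 were highest in CD27+CD69+ cells, whereas Tnfrsf1b and Fas were called in no comparison.

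Counted by adjusted p under 0.05 (edgeR quasi-likelihood test, Benjamini-Hochberg over 10536 genes), 1 of the 8 was called for CD69 in CD11b+ cells, beside 2.74% of all genes tested. For CD69 in CD27+ cells 2 of 8 were called, beside 1.85% of all genes. CD27+ and CD11b+ cells differed in 2 of 8 among CD69- cells, beside 12.4% of all genes, and in 2 of 8 among CD69+ cells, beside 1.9%. Cd27, on which the cells were sorted, is one of the called genes in both of these, so 1 of 7 remained in each, and among CD69- cells that is close to the share of all genes. The 8 genes had a median log2 difference of 0.41 for CD69 in CD11b+ cells and 0.35 in CD27+ cells, against 0.00 and -0.01 over all genes, which is a description only, since genes reach the test by their counts.

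**Figure D1:**
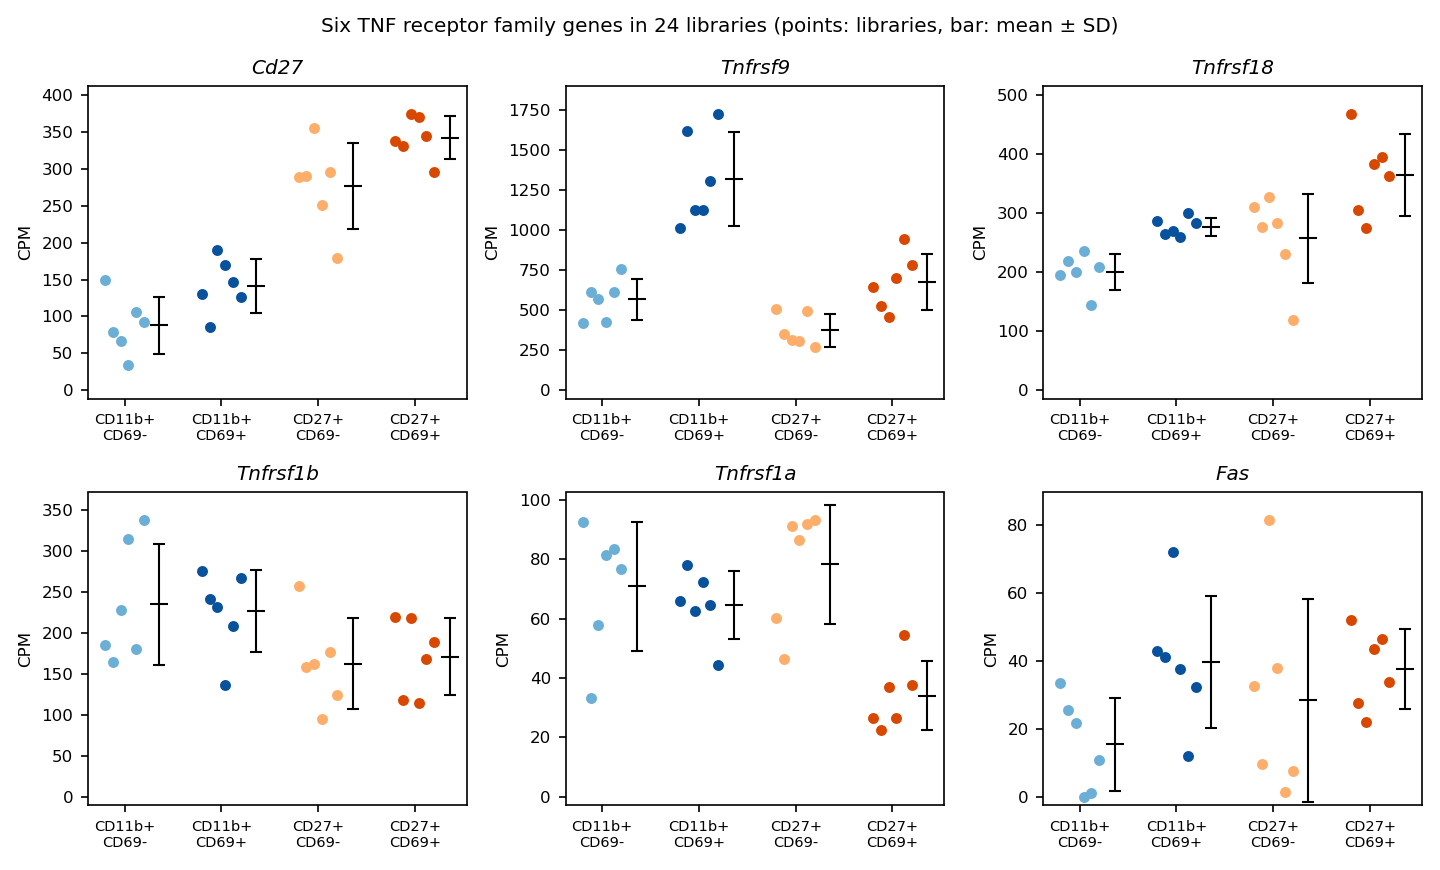
Levels of the 6 more abundant receptor genes, in CPM (TMM-scaled) on the vertical axis, in the 4 populations on the horizontal axis. Points are libraries and bars are mean ± SD of 6. Tnfrsf9 is highest in CD11b+CD69+ libraries, which lie between 1016 and 1728 CPM, and Cd27 is highest in CD27+CD69+ libraries, between 296 and 375 CPM.

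Cd27 (ENSMUSG00000030336), the receptor of CD70, had 34.8 to 149 CPM in CD11b+CD69- libraries (median 85.4) and 85.9 to 190 (median 138) in CD11b+CD69+ libraries. It had 179 to 355 CPM (median 289) in CD27+CD69- and 296 to 375 (median 341) in CD27+CD69+ libraries. Cd27 transcript was thus present in all 12 CD11b+ libraries. At a given CD69 state the CD11b+ and CD27+ ranges did not overlap, although the highest CD11b+CD69+ library stood above the lowest CD27+CD69- library. The log2 difference between CD27+ and CD11b+ cells was 1.66 (SE 0.23, edgeR adjusted p = 1.04e-05) among CD69- cells and 1.28 (SE 0.23, adjusted p = 0.0012) among CD69+ cells, which checks the sort and is no finding. What the sort did not fix is the difference with CD69. In CD11b+ cells it was 0.69 (SE 0.23, edgeR adjusted p = 0.109), with 6 of 6 CD69+ libraries above the CD69- median and overlapping ranges. It passed without replicate 1 (0.93, adjusted p = 0.0369) and with macrophage marker level as a covariate (0.79, adjusted p = 0.0176). In CD27+ cells it was 0.30 (SE 0.22, adjusted p = 0.745).

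Tnfrsf9 (ENSMUSG00000028965), which encodes the co-stimulatory receptor 4-1BB, was the most abundant of the 9 genes per base of exon in 3 of the 4 populations. It had 423 to 757 CPM (median 590) in CD11b+CD69- libraries and 1016 to 1728 (median 1217) in CD11b+CD69+ libraries. In CD27+CD69- libraries it had 270.5 to 508 CPM (median 333), and in CD27+CD69+ libraries 458.5 to 945 (median 675). Every CD11b+CD69+ library stood above every library of the other 3 populations, and the CD27+CD69- libraries were the lowest as a group, overlapping with both CD11b+CD69- and CD27+CD69+ libraries. In CD11b+ cells the CD69+ mean of 1320 ± 291 CPM stood against 567 ± 127 (SD, n = 6), a 2.33-fold difference (log2 1.22, SE 0.19, edgeR adjusted p = 0.0002). This call held with each replicate number left out in turn (1.17 to 1.26, adjusted p from 0.000464 to 0.0032). In CD27+ cells 676.5 ± 176 stood against 374 ± 102 CPM, a 1.8-fold difference (log2 0.85, SE 0.19, edgeR adjusted p = 0.0113), which did not pass without replicate 4 (0.78, adjusted p = 0.0713).

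Between the sorts, Tnfrsf9 was lower in CD27+ than in CD11b+ cells by a log2 difference of -0.96 (SE 0.19, edgeR adjusted p = 0.00287) among CD69+ cells, with ranges that did not overlap. Without replicate 2 it was -0.84 with adjusted p = 0.052. Among CD69- cells the difference was -0.60 (SE 0.19, edgeR adjusted p = 0.0318), with 6 of 6 CD27+ libraries below the CD11b+ median. That second call rested on the setting: adjusted p was 0.102, 0.0909, 0.0672 and 0.205 without replicates 2, 3, 4 and 6, 0.0857 without CD27+CD69- replicate 6 alone, 0.0666 with limma-voom, 0.0511 with only the populations compared and 0.0786 with the macrophage covariate. All of these kept the direction, with values from -0.78 to -0.42 over the replicates left out. Cd27 and Tnfrsf9 differed between the sorts in opposite directions, while the means of both were higher with CD69 in each sort. CD27+CD69- cells differed from CD11b+CD69+ cells in both genes, Tnfrsf9 by -1.82 (SE 0.19, edgeR adjusted p = 9.31e-07) and Cd27 by 0.97 (SE 0.22, adjusted p = 0.00617). In that pair 2 of 8 genes were called, beside 6.19% of all genes. Cd27, on which the cells were sorted, is one of the 2 and only checks the sort, which leaves Tnfrsf9.

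Tnfrsf18 (ENSMUSG00000041954), which encodes the co-stimulatory receptor GITR, had 145 to 235 CPM (median 204) in CD11b+CD69- and 259 to 300.1 (median 276) in CD11b+CD69+ libraries. In CD27+CD69- libraries it had 119 to 326 CPM (median 279.5), and in CD27+CD69+ libraries 274 to 468 (median 372). The CD11b+ groups did not overlap, and the lowest CD27+CD69- value, 119 CPM, was that of replicate 6, the library rich in melanoma markers. Despite the separate ranges, the CD69 difference in CD11b+ cells, 0.47 (SE 0.17), had an edgeR adjusted p of 0.156, and passed when only the populations compared were fitted (adjusted p = 0.0236). In CD27+ cells it was 0.50 (SE 0.17, adjusted p = 0.151). Between CD27+ and CD11b+ cells it was 0.36 (SE 0.17, adjusted p = 0.182) among CD69- cells and 0.40 (SE 0.17, adjusted p = 0.32) among CD69+ cells. Without CD27+CD69- replicate 6 the value among CD69- cells was 0.51, with adjusted p = 0.00961. Only the most distant pair was called: CD27+CD69+ libraries stood above every CD11b+CD69- library, by 0.86 (SE 0.17, edgeR adjusted p = 0.000842). In that pair 3 of 8 genes were called (Cd27, Tnfrsf18 and Tnfrsf1a), beside 11% of all genes. Cd27, on which the cells were sorted, is one of the 3 and only checks the sort.

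Tnfrsf1a (ENSMUSG00000030341), which encodes the death domain receptor TNFR1, had 33.4 to 92.7 CPM (median 79.0) in CD11b+CD69- and 44.3 to 78.1 (median 65.2) in CD11b+CD69+ libraries. It had 46.4 to 93.2 CPM (median 88.9) in CD27+CD69- and 22.4 to 54.4 (median 31.9) in CD27+CD69+ libraries. The first 3 populations shared one range, and the CD27+CD69+ libraries were lower, overlapping with its lower edge. In CD27+ cells the CD69+ mean was 34.1 ± 11.7 against 78.3 ± 20.0 CPM (SD, n = 6), 2.29-fold lower (log2 -1.20, SE 0.25, edgeR adjusted p = 0.00793), with 6 of 6 libraries below the CD69- median. Without replicates 3 and 4 in turn it was -1.17 and -1.10, with adjusted p of 0.05 and 0.068, and it passed without CD27+CD69- replicate 6. In CD11b+ cells the same difference was -0.14 (SE 0.25, adjusted p = 0.89). The difference between these 2 differences, -1.06 (SE 0.35), had an unadjusted p of 0.00544 and an adjusted p of 0.218, so it was not shown that CD69 separated Tnfrsf1a levels differently in the 2 sorts. CD27+CD69+ libraries were also below CD11b+CD69- libraries (-1.06, SE 0.25, edgeR adjusted p = 0.00523). Against CD11b+CD69+ libraries the value was -0.92 (SE 0.25, adjusted p = 0.0534), which passed with DESeq2 (adjusted p = 0.0215) and without replicate 5 (-1.11, adjusted p = 0.0496).

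Fibroblasts also express Tnfrsf1a, and fibroblast markers were high in the CD27+CD69- libraries. In replicates 1 to 6 of that population the fibroblast sum was 2172, 9093, 6837, 2282, 294 and 5348 CPM. Tnfrsf1a in the same 6 libraries was 60.1, 46.4, 91.2, 86.6, 92.0 and 93.2 CPM. Their melanoma marker sums were 38.0, 1.365, 8.51, 278, 162 and 5826 CPM. Their endothelial marker sums were 45.8, 136, 72.8, 68.4, 285 and 83.3 CPM. The CD11b+ libraries had at most 8.02 CPM of fibroblast markers and 33.4 to 92.7 CPM of Tnfrsf1a. The fibroblast sum separates the CD27+CD69- libraries from all others, and with it as a covariate 1 gene in all, and none of the 8 receptor genes, was called for CD69 in CD27+ cells. The part of fibroblast, melanoma or endothelial RNA in the Tnfrsf1a difference was not tested.

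**Figure D2:**
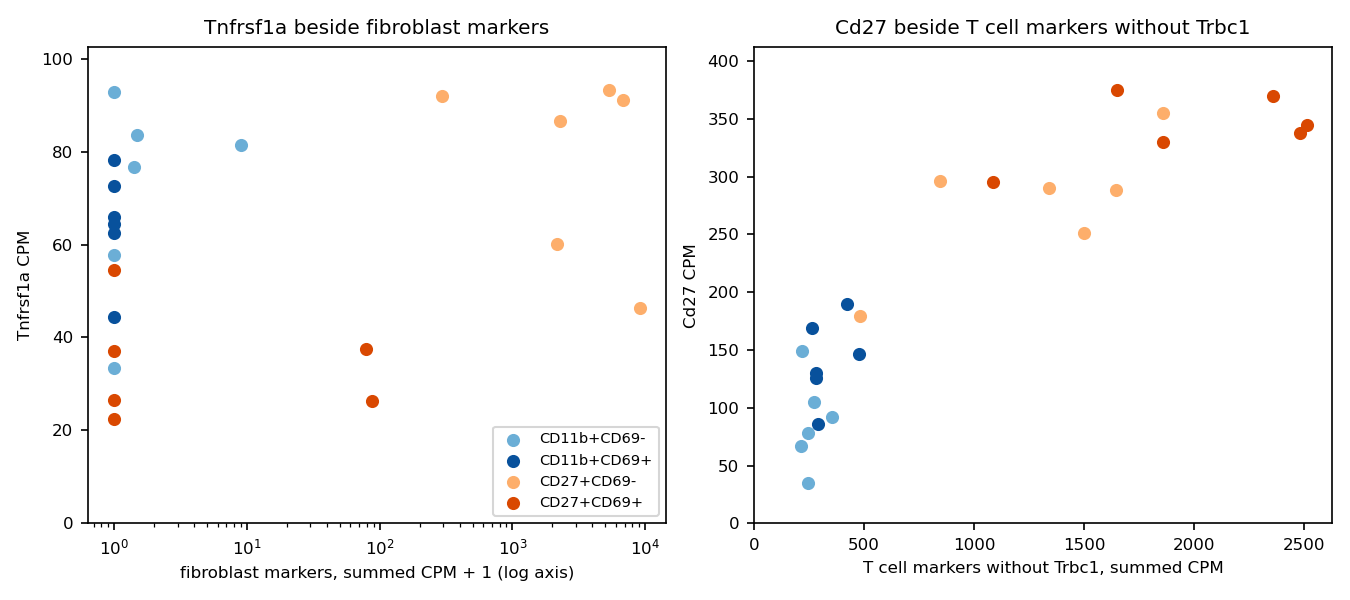
Left, Tnfrsf1a (CPM) against the summed level of 8 fibroblast markers (CPM + 1, log axis), and right, Cd27 (CPM) against the summed T cell markers without Trbc1 (CPM). Points are libraries, coloured by population. The CD27+CD69- libraries, with 294 to 9093 CPM of fibroblast markers, have Tnfrsf1a between 46.4 and 93.2 CPM, and most CD27+ libraries lie to the upper right for Cd27 and T cell markers.

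Tnfrsf1b (ENSMUSG00000028599), which encodes TNFR2, the TNF receptor without a death domain, had 164 to 337 CPM (median 207) in CD11b+CD69- and 136 to 275.5 (median 236.5) in CD11b+CD69+ libraries. It had 94.8 to 257 CPM (median 160) in CD27+CD69- and 114 to 219 (median 178) in CD27+CD69+ libraries. All 4 ranges overlapped, with the CD11b+ groups somewhat higher. No comparison called it: the CD69 difference was -0.05 (SE 0.22, edgeR adjusted p = 0.971) in CD11b+ and 0.07 (SE 0.23, adjusted p = 0.976) in CD27+ cells, and CD27+ cells differed from CD11b+ cells by -0.53 (SE 0.23, adjusted p = 0.139) among CD69- and -0.41 (SE 0.23, adjusted p = 0.545) among CD69+ cells. The value of -0.53 became -0.77 with adjusted p = 0.0289 without replicate 1. A p that misses the threshold does not show that levels were equal.

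Fas (ENSMUSG00000024778), the death receptor of Fas ligand, was low and variable. It had 0 to 33.3 CPM (median 16.2) in CD11b+CD69- and 12.1 to 72.0 (median 39.2) in CD11b+CD69+ libraries, 1.28 to 81.3 (median 21.0) in CD27+CD69- and 21.8 to 52.1 (median 38.6) in CD27+CD69+ libraries. All ranges overlapped and both CD69- groups spread widely, with counts in 23 of 24 libraries. The CD69 difference was 1.37 (SE 0.73, edgeR adjusted p = 0.428) in CD11b+ and 0.40 (SE 0.72, adjusted p = 0.944) in CD27+ cells, so a difference was not detectable at this spread.

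The other 3 genes had few counts, where 3 counts equal 1.12 to 2.47 CPM. Tnfrsf4 (ENSMUSG00000029075), encoding the T cell co-stimulator OX40, had 17, 0, 0, 39, 0 and 0 counts in CD11b+CD69- replicates 1 to 6 and 0, 9, 35, 9, 10 and 0 in CD11b+CD69+ replicates. In CD27+CD69- it had 2, 1, 0, 0, 0 and 0 counts, and in CD27+CD69+ 0, 2, 0, 0, 10 and 10. The CD11b+ libraries held 119 of its 144 counts, with 39 and 35 of them in single libraries. Libraries with counts were 6 of 12 for CD11b+ and 5 of 12 for CD27+ cells, and no comparison called Tnfrsf4. Tnfrsf14 (ENSMUSG00000042333), encoding the BTLA and CD160 ligand HVEM, had 112 counts spread over 15 libraries, with at most 30 in one. Tnfrsf25 (ENSMUSG00000024793) encodes the death domain receptor DR3. It had 15 counts in 2 of 12 CD11b+ libraries and 142 counts in 10 of 12 CD27+ libraries, all 6 CD27+CD69- libraries among them. The log2 difference between CD27+ and CD11b+ cells was 3.33 (SE 1.38, edgeR adjusted p = 0.129) among CD69- and 3.42 (SE 1.42, adjusted p = 0.307) among CD69+ cells. Among CD69- cells it passed with limma-voom (adjusted p = 0.0168) and without replicate 4 (adjusted p = 0.015), the replicate that holds the counts of the CD11b+CD69- group. Without it that group held no counts. Tnfrsf25 reached the test through the CD27+ libraries, so these values follow in part from the filter on low counts and are no support for a difference.

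Ordered by mean level, each gene arranged the 4 populations differently. Cd27 ran from CD11b+CD69- as the lowest through CD11b+CD69+ and then CD27+CD69- to CD27+CD69+. Of the neighbours in that order only the middle pair, which lies across the sort on CD27, differed by the test. Tnfrsf9 ran from CD27+CD69- through CD11b+CD69- and then CD27+CD69+ up to CD11b+CD69+. Its outer neighbours differed by the test and its middle pair was not called (0.25, SE 0.18, edgeR adjusted p = 0.453). Tnfrsf18 was lowest in CD11b+CD69- and highest in CD27+CD69+ libraries, with CD27+CD69- just below CD11b+CD69+ between them and no neighbouring pair called. Tnfrsf1a ran from CD27+CD69+ through CD11b+CD69+ and then CD11b+CD69- to CD27+CD69-. Tnfrsf1b had the CD27+ populations below the CD11b+ ones, with CD27+CD69- lowest and CD11b+CD69- highest. Fas had the CD69- populations below the CD69+ ones, with CD11b+CD69- lowest and CD11b+CD69+ highest. No neighbouring pair was called for these 3 genes.

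**Figure D3:**
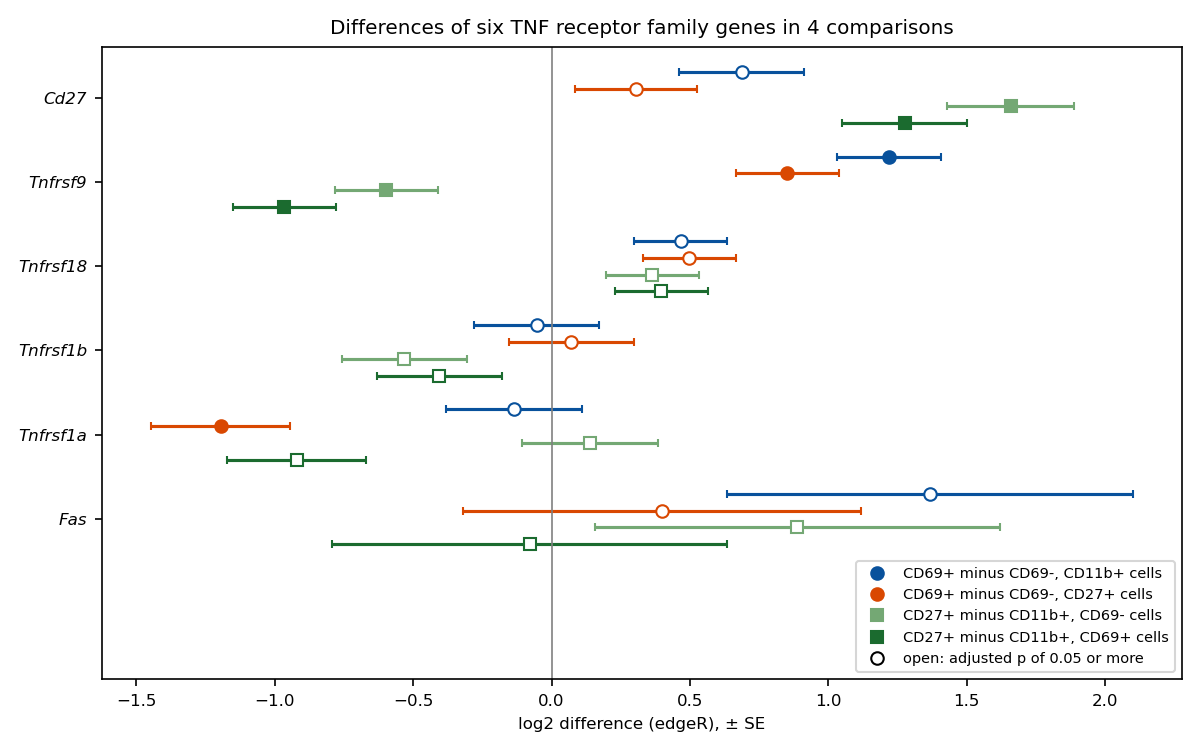
Log2 differences of the 6 genes (horizontal axis, edgeR estimates, bars ± SE) in 4 comparisons, by gene on the vertical axis. Filled symbols have adjusted p under 0.05 over all genes tested. Tnfrsf9 is filled in all 4, to the right of 0 for both CD69 comparisons and to the left for both comparisons of CD27+ with CD11b+ cells.

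The difference between the CD69 differences, CD27+ cells minus CD11b+ cells, was called for 0 of the 8 genes, beside 0.579% of all genes tested. It was also 0 with DESeq2 and limma-voom. For Tnfrsf9 it was -0.37 (SE 0.26, edgeR adjusted p = 0.768), for Cd27 -0.38 (SE 0.32, adjusted p = 0.827), for Tnfrsf18 0.03 (SE 0.24, adjusted p = 0.999), for Tnfrsf1b 0.13 (SE 0.32, adjusted p = 0.988) and for Fas -0.97 (SE 1.02, adjusted p = 0.902). Among all genes 997 had an unadjusted p under 0.05, and Tnfrsf1a was the single one of the 8 genes with such a p.

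Levels of different genes can be compared per kilobase of exon. In CD11b+CD69+ libraries the means per kb were 485 CPM for Tnfrsf9, 181.5 for Tnfrsf18, 60.7 for Cd27, 59.3 for Tnfrsf1b, 25.0 for Tnfrsf1a and 19.2 for Fas. In CD27+CD69- libraries Tnfrsf18 came first with 169 CPM per kb, before Tnfrsf9 with 138 and Cd27 with 119. In CD27+CD69+ libraries Tnfrsf9 had 248.5 CPM per kb, Tnfrsf18 239 and Cd27 147. So 4-1BB transcript led in both CD11b+ populations, while in CD27+ cells GITR transcript stood beside it.

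Ligand genes were measured in the same cells, from a list of 11 of which 7 were tested. CD70, the ligand of CD27, was near absent: Cd70 had 102 counts in 3 of 6 CD11b+CD69+ libraries, with at most 28.8 CPM, 1 count in CD27+CD69+ libraries and 0 in the other 12, and was not tested. Tnfsf9, the 4-1BB ligand, had 0 to 4.92 CPM in CD11b+CD69- (median 0), and 0.416 to 41.0 in CD11b+CD69+ libraries (median 19.8). In CD27+CD69- libraries it had 1.97 to 56.9 CPM (median 17.4) and in CD27+CD69+ libraries 9.14 to 32.3 (median 13.2). The CD11b+CD69- libraries were the low group, with counts in 2 of 6, and the other 3 groups overlapped. Tnfsf9 was higher with CD69 in CD11b+ cells (log2 4.24, SE 1.03, edgeR adjusted p = 0.02). The size of that rise rests on 13 counts in CD11b+CD69- libraries, and adjusted p was 0.1, 0.0565, 0.116 and 0.0713 without replicates 2, 3, 4 and 6, 0.112 with limma-voom and 0.0693 with only the populations compared. It also differed between CD27+ and CD11b+ cells among CD69- cells (4.48, SE 1.04, edgeR adjusted p = 0.00373). Tnfsf9 reached the test through the other 3 populations, not through CD11b+CD69- libraries. Both values therefore follow in part from the filter on low counts and are no support for a difference. Its receptor gene, Tnfrsf9, was called for CD69 in both sorts. Tnfsf9 shares 192 exon bases with the antisense-strand gene Gm11110, which had 642 counts.

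Fasl, which encodes Fas ligand and is a killing molecule of NK cells, was more abundant per kb than each of the 9 receptor genes in all 4 populations, with 901 CPM per kb in CD11b+CD69- and 433 in CD27+CD69- libraries. It had 1513 to 1940 CPM (median 1758) in CD11b+CD69- and 1079 to 1300 (median 1190) in CD11b+CD69+ libraries, with no overlap, and 599 to 1135 and 736 to 1018 CPM in the CD27+CD69- and CD27+CD69+ libraries. Fasl fell with CD69 in CD11b+ cells (-0.55, SE 0.12, edgeR adjusted p = 0.00844) and was lower in CD27+ than CD11b+ cells by -1.06 (SE 0.12, adjusted p = 6.52e-07) among CD69- cells. Among CD69+ cells it was lower by -0.46 (SE 0.12, adjusted p = 0.0415), with adjusted p from 0.122 to 0.177 without replicates 1, 3, 4 and 5. Cd160, which encodes a receptor that binds HVEM, was lowest in CD11b+CD69- libraries, where Fasl was highest, with population means of 62.3, 142, 233 and 434 CPM. It was higher in CD27+ cells by 1.91 (SE 0.30, edgeR adjusted p = 6.32e-05) and 1.61 (SE 0.29, adjusted p = 0.00168) and rose with CD69 in CD11b+ cells by 1.19 (SE 0.30, adjusted p = 0.0246), where adjusted p was 0.105, 0.17 and 0.0634 without replicates 3, 4 and 5, 0.0645 with limma-voom, 0.078 with no filter and 0.0635 with only the populations compared. No ligand was called for CD69 in CD27+ cells (0 of 7, beside 1.85% of all genes tested). Tnf, which encodes the ligand of both TNF receptors, had means of 1.65, 4.94, 6.22 and 13.7 CPM per kb. The most distant pair, CD27+CD69+ against CD11b+CD69-, differed by 3.02 (SE 0.90, edgeR adjusted p = 0.027), with adjusted p of 0.0763, 0.0864, 0.0518 and 0.0835 without replicates 1, 2, 4 and 6. Tnf had 38 counts in 3 of 6 CD11b+CD69- libraries and reached the test through populations where it was higher. That value therefore follows in part from the filter on low counts and is no support for a difference. Lta, encoding lymphotoxin alpha, which also binds both TNF receptors, had means of 49.2 ± 21.1 CPM for CD27+CD69+ and 16.1 ± 7.79 CPM for CD27+CD69- libraries (SD, n = 6), with counts in 12 of 12 of them and in 3 of 12 CD11b+ libraries. Tnfsf4, the OX40 ligand, had means of 3.49, 6.19, 0.924 and 5.98 CPM per kb, and Tnfsf14, a ligand of HVEM, of 11.0, 11.0, 3.34 and 10.4. Tnfsf18, the GITR ligand, had 3 counts in all and Tnfsf15, the DR3 ligand, 0.

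**Figure D4:**
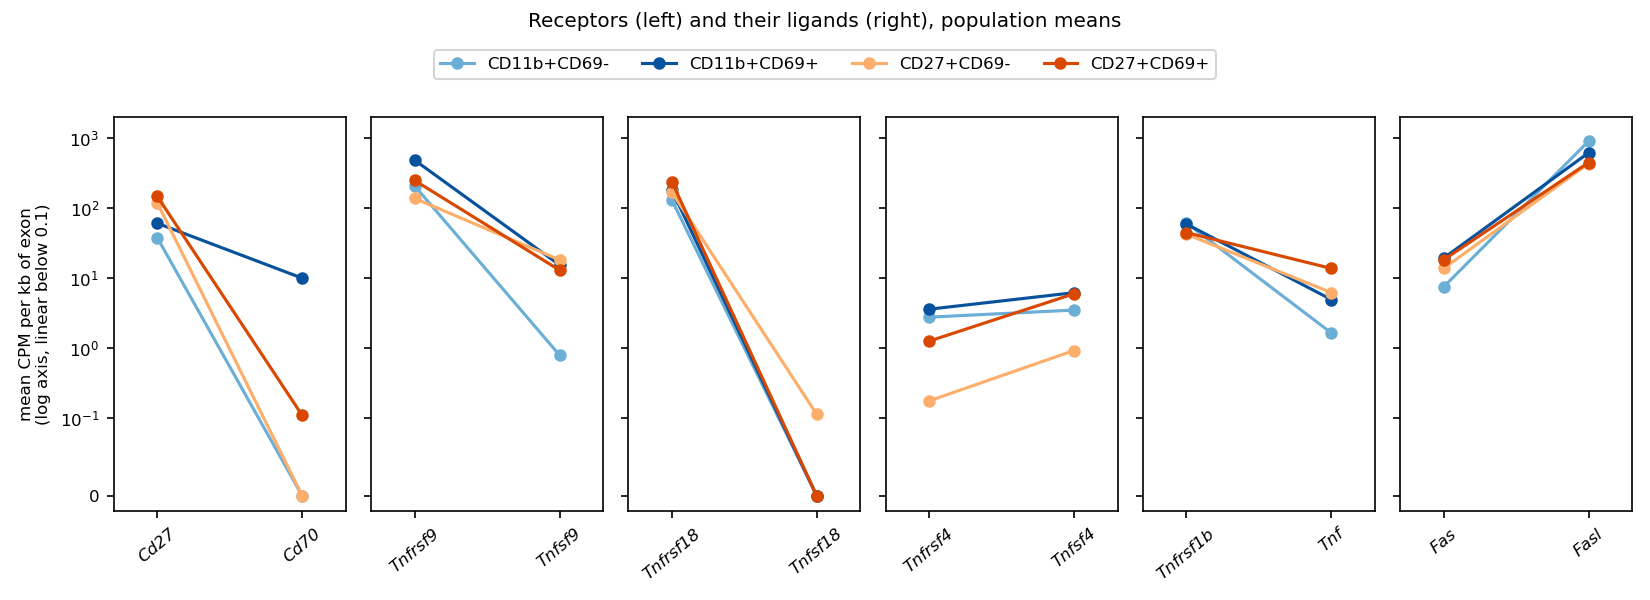
Population means of 6 receptor genes (left point of each panel) and a ligand of each (right point) in CPM per kb of exon, on an axis that is logarithmic above 0.1 and linear below it. Lines join the means of a population and carry no test. In all 4 populations the ligand is below the receptor for Cd27, Tnfrsf9, Tnfrsf18 and Tnfrsf1b, and above it for Tnfrsf4 and Fas.

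Of 19 other TNF receptor family genes 10 were tested. None was called for CD69 in either sort, beside 2.74% of all genes tested in CD11b+ cells and 1.85% in CD27+ cells. Between the sorts 3 of 10 were called among CD69- cells, beside 12.4%, and 1 of 10 among CD69+ cells, beside 1.9%. CD27+ cells had more Tnfrsf26, with means of 71.0 against 19.9 CPM among CD69- cells (log2 1.83, SE 0.35, edgeR adjusted p = 0.000577). Among CD69+ cells 72.8 stood against 28.7 CPM (1.34, SE 0.34, adjusted p = 0.0324), which did not pass with any one replicate number left out (adjusted p from 0.0521 to 0.173). Ltbr, the lymphotoxin beta receptor, and Tnfrsf11b, the secreted decoy osteoprotegerin, were called among CD69- cells, with adjusted p = 0.00116 and 0.0033. Both were also called for CD27+CD69- against CD11b+CD69+ cells, and Tnfrsf11b for CD27+CD69+ against CD11b+CD69- cells, a call that no run with a replicate number left out kept. Both had 0 counts in all 12 CD11b+ libraries and reached the test only through CD27+ libraries. These calls therefore follow in part from the filter on low counts, and no fold is given. Ltbr had 9.93 to 15.7 CPM in the CD27+CD69- libraries and at most 2.03 in CD27+CD69+, and Tnfrsf11b had 2.96 to 182 and 0 to 26.0. Both are known from stromal cells, and the CD27+CD69- libraries were those with fibroblast markers at 294 to 9093 CPM. The part of stromal RNA in these values was not tested.

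Downstream of the receptors, 18 TRAF adaptor and signalling genes, 9 death domain and caspase genes and 12 NF-kB output genes were tested. With CD69 in CD11b+ cells 2 of the 18 rose, Traf1 and Traf2, adaptors recruited by 4-1BB, and 1 of the 12, Relb, a subunit of the non-canonical NF-kB pathway, while 0 fell in any of these lists; of all genes tested 2.74% were called in this comparison. Traf1 had 157 to 343 CPM (median 287) in CD11b+CD69- and 406 to 560 (median 495) in CD11b+CD69+ libraries, with no overlap (log2 0.85, SE 0.18, edgeR adjusted p = 0.00502, passing with each replicate number left out). Relb had 35.3 to 108 CPM (median 80.5) and 111 to 203.5 (median 147), again with no overlap (1.06, SE 0.25, adjusted p = 0.0173), but with adjusted p of 0.0628, 0.0598 and 0.0649 without replicates 2, 3 and 5. Traf2 had 71.6 to 116 and 115 to 219.5 CPM (0.74, SE 0.18, adjusted p = 0.0246) with adjusted p from 0.0557 to 0.128 without replicates 1 to 5. The median log2 difference was 0.14 over the 18 signalling genes, 0.16 over the 9 death pathway genes and 0.18 over the 12 NF-kB genes, against 0.00 over all genes. In CD27+ cells 0 of these genes were called for CD69 by edgeR, where 195 of all genes (1.85%) were called and 1154 had an unadjusted p under 0.05. The level of Traf1 was 290.5 ± 81.2 CPM in CD69- and 445 ± 70.1 in CD69+ libraries.

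**Figure D5:**
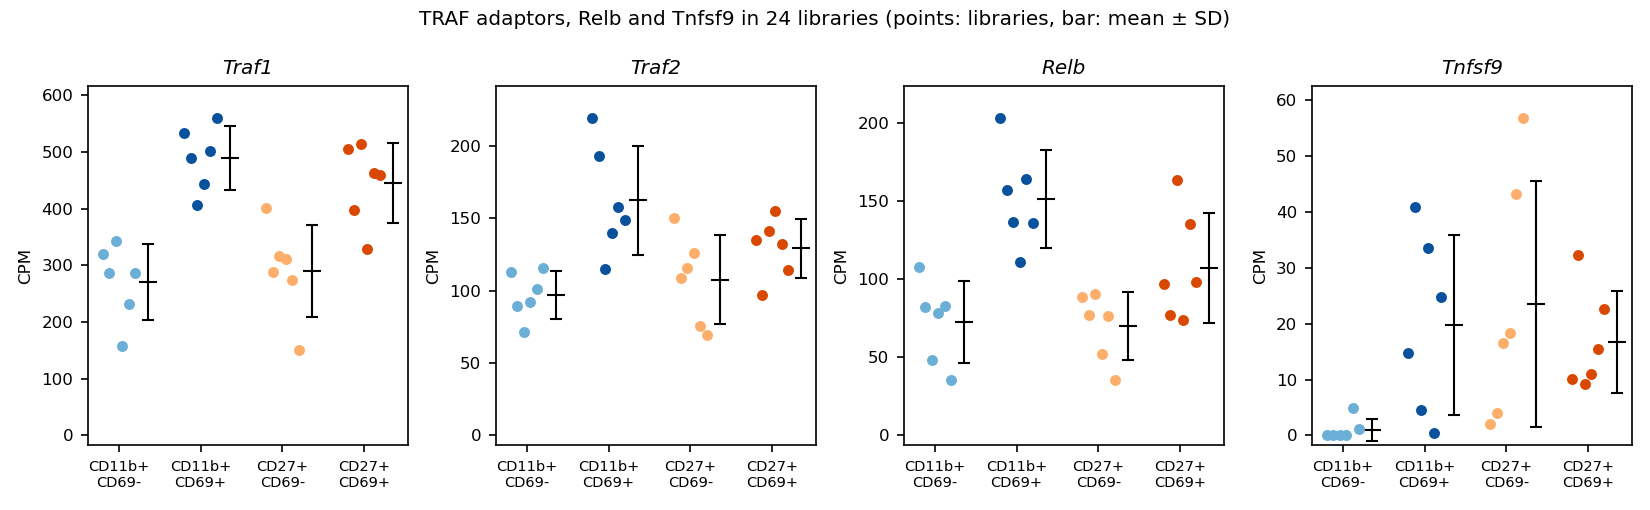
Levels of Traf1, Traf2, Relb and Tnfsf9 in CPM (vertical axes) in the 4 populations (horizontal axes). Points are libraries and bars are mean ± SD of 6. Traf1 and Relb in CD11b+CD69+ libraries, from 406 and 111 CPM upwards, lie above all CD11b+CD69- libraries, while the CD27+ groups overlap.

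Between CD27+ and CD11b+ cells the signalling lists moved in few members. Among CD69- cells Siva1, encoding a CD27-binding protein, was higher (1.26, SE 0.41, edgeR adjusted p = 0.0386) and Sharpin, a subunit of the linear ubiquitin ligase, was lower (-0.64, SE 0.18, adjusted p = 0.0182), together 2 of 18, close to the 12.4% of all genes called there. Siva1 had adjusted p from 0.0616 to 0.105 without replicates 1, 3, 4, 5 and 6 and 0.0812 without CD27+CD69- replicate 6 alone, and Sharpin had adjusted p of 0.106, 0.0758 and 0.0971 without replicates 2, 3 and 6. With only the populations compared Siva1 had 0.0875 and Sharpin 0.0625, and with the macrophage covariate Siva1, Sharpin, Nfkbia and Tnfaip3 had adjusted p of 0.085, 0.153, 0.0542 and 0.153. Nfkbia and Tnfaip3, feedback inhibitors of NF-kB, were lower, 2 of 12, which is also near that share, by -0.55 (SE 0.14, adjusted p = 0.00847) and -0.50 (SE 0.16, adjusted p = 0.0323). Nfkbia had an adjusted p of 0.054 without replicate 5, and Tnfaip3 from 0.0548 to 0.179 without replicates 1, 3, 5 and 6 and 0.0901 without CD27+CD69- replicate 6 alone. Among CD69+ cells Icam1, an adhesion molecule induced by NF-kB, was lower in CD27+ cells (-0.95, SE 0.24, edgeR adjusted p = 0.0287), 1 of 12, beside 1.9% of all genes. Icam1 had adjusted p from 0.0826 to 0.133 without replicates 2, 3, 4 and 5.

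T cells also express Cd27, Tnfrsf9, Tnfrsf4 and Tnfrsf18, and T cell markers moved with the CD27 sort. Of 12 T cell markers, 9, 10, 12 and 11 had counts in the 4 populations. Without Trbc1 their sums were 216 to 355, 264 to 477, 482 to 1860 and 1086 to 2511 CPM. Cd3e had 1 count in all CD11b+CD69- and 20 in all CD11b+CD69+ libraries, against 85.8 ± 42.2 CPM for CD27+CD69- and 139 ± 45.1 CPM for CD27+CD69+ libraries (SD, n = 6). Regulatory T cells carry much 4-1BB and GITR, and of their 7 markers 2, 4, 5 and 5 had counts in the 4 populations, with sums of 9.93 to 34.3, 4.77 to 150, 134 to 314 and 226 to 576 CPM. Most of that was Ctla4, with means of 7.72, 43.5, 76.8 and 180 CPM, and Ikzf2, with 11.3, 28.2, 120 and 208 CPM, while Foxp3 had 0 counts in 3 populations and 44 counts in 1 CD11b+CD69+ library. Cd4 had 0 counts in CD11b+CD69- and CD27+CD69+ libraries. In CD27+ cells these sums were also higher with CD69, as Tnfrsf9 and Tnfrsf18 means were: 1279 against 1990 CPM for T cell, 221.5 against 425 for regulatory T cell and 55.0 against 137 for dendritic cell markers. Not all members moved with the sums. Cd5 (10.4 against 5.82 CPM), Cd6 (26.1 against 12.7), Lef1 (109 against 98.0), Cd4, Izumo1r and Lrrc32 were lower with CD69, and the other T cell markers were higher. The dendritic cell sum was mostly Ccr7 (44.5 against 116 CPM), with Clec9a, Cd209a and Siglech at 0. Between the sorts Tnfrsf9 was lower in CD27+ libraries and the T cell sums were higher. A list of 8 markers of type 1 innate lymphoid cells and tissue residency also moved with the CD27 sort. Its sums had means of 87.7, 124, 442 and 519 CPM. Among these markers Itga1 did not follow the sort, with means of 26.1, 53.1, 41.1 and 50.5 CPM. The part of T cell or innate lymphoid cell RNA in the Cd27, Tnfrsf9 and Tnfrsf18 levels was not tested. For CD69 in CD11b+ cells the T cell sums of the 2 groups overlapped, while B cell and dendritic cell sums did not. Of 6 B cell markers 3 had counts in each group, summing to 61.6 to 267 CPM in CD69- and 309 to 461 in CD69+ libraries, nearly all of it Ighm, with Ms4a1 and Pax5 at 0. Of 7 dendritic cell markers 2 and 3 had counts, summing to 0.410 to 13.3 and 21.7 to 46.1 CPM, with Flt3, Clec9a, Cd209a and Siglech at 0. The part of these cells in the Tnfrsf9 difference was not tested.

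The genes whose levels ran most like each receptor were found by Pearson correlation of log2 CPM over the 24 libraries, among 7983 genes. These values describe the libraries, which share populations, and carry no test; the correlation of deviations from the population means is given second. For Cd27 they were Emb (0.919 and 0.474), Cxcr3 (0.918 and 0.598), Cd160 (0.912 and 0.637), Cd3d (0.901 and 0.567) and Trac (0.899 and 0.593), so that T cell receptor complex genes and a chemokine receptor were among its nearest. For Tnfrsf9 they were Pld3 (0.828 and 0.346), Sec11c (0.824 and 0.389), Mir155hg (0.780 and 0.370), Rgs1 (0.762 and 0.186) and Khdc1b (0.761 and 0.587). Tnfrsf18 ran with Trdc (0.823 and 0.693), the immunoproteasome subunits Psmb8 (0.806 and 0.531) and Psmb10 (0.798 and 0.598), Skap1 (0.792 and 0.616) and Evl (0.783 and 0.611). The nearest to Tnfrsf1a were Pnpla8 (0.783 and 0.734), Maged2 (0.691 and 0.231), Mdm2 (0.667 and 0.531), Rtn3 (0.655 and 0.427) and Cited2 (0.653 and 0.255). Those of Tnfrsf1b, Dusp5 (0.819 and 0.807), Vps37b (0.784 and 0.715), Oplah (0.766 and 0.698), Triobp (0.755 and 0.695) and Gatad2a (0.746 and 0.660), kept nearly the whole correlation within populations. Fas ran with Tti1 (0.718 and 0.611), Lilrb4a (0.714 and 0.588), Klhdc1 (0.703 and 0.788), Stambpl1 (0.693 and 0.723) and Arsa (0.690 and 0.609).

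Among themselves the 6 abundant receptor genes were only loosely related. The highest correlations over the 24 libraries were 0.557 for Tnfrsf18 with Fas and 0.537 for Tnfrsf18 with Cd27, and the lowest was -0.561 for Tnfrsf18 with Tnfrsf1a. Within populations these were 0.356, 0.095 and -0.230. Cd27 and Tnfrsf9, the 2 most clearly patterned genes, had -0.223 over all libraries and 0.014 within populations.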

How the data were processed

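RNA was measured in 24 libraries of sorted NK cells, made with SMART-Seq v4 and Nextera XT per the labels' protocols, without strand or molecular identifiers. A floor of 3 counts covers counting error only, while SEs and p-values reflect the spread between libraries. Raw counts per Ensembl gene were deposited by the authors, and the submitters' processing notes name HTSeq, Picard and GRCm38. For the aligner and annotation release, nothing is given in the sources used here. Of 53471 table entries, 6 repeats were removed, and 3433 identifiers without a symbol held 0.174% of counts. Library totals had a median of 2213433. One model of 4 group means was fitted to all libraries with edgeR 4.0.16 in R 4.3.3 (filterByExpr with minimum count 10, TMM factors 0.958 to 1.06, robust quasi-likelihood), with Benjamini-Hochberg adjustment over 10536 genes and a threshold of 0.05. CPM are TMM-scaled. The fit was tested on simulated data. Replicates within populations differed beyond counting error in all 60 pairs (chi-square per degree of freedom 10.8 to 35.6). Alternatives were DESeq2 1.42.0, limma-voom (limma 3.58.1), DESeq2 size factors in edgeR, no filter, a replicate block, only the populations compared, marker covariates and each replicate number left out. The members and gene lists were chosen with earlier results of these data known. Named genes are all 9 members, up to 4 called genes per list and comparison with the smallest p, each member's ligand, and the 5 genes most correlated with each member of at least 10 CPM, with clone-named genes and pseudogenes left out. Correlations used log2 CPM with a prior count of 2. Gene positions and exon lengths are from GENCODE M21. Some genes of these lists are left out of the text.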

Additional observations from a re-analysis of the deposited data

Results flagged for a closer look

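In 5 of the 36 groups of 6 libraries examined (9 genes in 4 populations), the highest library stood apart from the rest, its gap to the next one taking more than 0.625 of the whole range. For normally distributed values chance flags about 1 in 20 groups. All 5 flagged groups belong to the 3 genes near the limit of detection, where that rate does not apply. A group with counts in a single library is always flagged by this rule. Tnfrsf4 had 15.95 CPM in CD11b+CD69+ replicate 3, with the next library at 4.99. Tnfrsf14 had 16.53 CPM in CD27+CD69+ replicate 4, with the next at 1.52. Tnfrsf25 had 3.82 CPM in CD11b+CD69- replicate 4 and 2.071 CPM in CD11b+CD69+ replicate 6, each the single library of its group with counts. In CD27+CD69- replicate 3 Tnfrsf25 had 22.68 CPM, with the next library at 5.99.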

How the results depend on the processing

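Tnfrsf4, Tnfrsf14 and Tnfrsf25 had 112 to 157 counts over 24 libraries, and their counts, like those of Fas, varied widely between libraries. The fibroblast covariate separates the CD27+CD69- libraries from all others, so its values say little about stability.

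Genes called for CD69 in CD11b+ cells numbered 289, 483 with DESeq2 and 188 with no filter. For CD69 in CD27+ cells 195 became 405 with no filter, 104 with the macrophage covariate, 1 with the fibroblast covariate and 121 without CD27+CD69- replicate 6, a setting chosen after seeing the data. Between CD27+ and CD11b+ cells 1304 became 41 with the fibroblast covariate among CD69- cells, and 200 became 316 with DESeq2 among CD69+ cells. For the difference between CD69 differences 61 became 169 with DESeq2, 31 with the macrophage and 1 with the fibroblast covariate. Leaving out each replicate number gave 183 to 256, 106 to 252, 900 to 1320, 115 to 188 and 17 to 51 genes in these 5 comparisons.

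Of the 8 receptor genes, those called for CD69 in CD11b+ cells went from 1 to 2 with only the populations compared and with the macrophage covariate. For CD69 in CD27+ cells they went from 2 to 0 with the fibroblast covariate. For CD27 against CD11b among CD69- cells they went from 2 to 1 with only the populations compared and with the macrophage covariate, and to 0 with the fibroblast covariate. With replicates left out the ranges were 1 to 2, 0 to 2, 1 to 3, 1 to 3 and 0 to 0.

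Signs turned only for differences that were not called and, with the fibroblast covariate, for Sharpin (0.30) and Tnfaip3 (0.06) among CD69- cells. For CD69 in CD27+ cells Cd27 was -0.07 and Tnfrsf1b -0.09 with the fibroblast covariate, and Fas was -0.06 with the macrophage covariate. Fas between CD27+ and CD11b+ cells among CD69+ cells was 0.09 with limma-voom and 0.34 with the replicate block. The difference between CD69 differences was -0.14 for Tnfrsf18 with the macrophage covariate and -0.11 without CD27+CD69- replicate 6, and -0.03 for Tnfrsf1b with the fibroblast covariate. CD27+CD69- minus CD11b+CD69+ cells gave 0.02 and 0.04 for Tnfrsf18 under the macrophage covariate and without CD27+CD69- replicate 6. With replicates left out, Tnfrsf1b ran from -0.18 to 0.15 (CD69 in CD11b+), -0.02 to 0.17 (CD69 in CD27+) and -0.11 to 0.35 (difference of differences), Fas from -0.34 to 0.29 (CD69+ cells), and Tnfrsf18 from -0.12 to 0.17 (difference of differences) and -0.19 to 0.05 (CD27+CD69- minus CD11b+CD69+).

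In the titles a number written with M stands on 1 library of each population, and what it marks is not given. The numbers were not treated as pairs: over 36 pairs with the same number the correlation of deviations ran from -0.029 to 0.207, with 1 pair over 0.1, and 4 were best with their own number. With the replicate block 273, 254, 1275, 198 and 65 genes were called in the 5 comparisons. Among the genes named, Tnfrsf1a between CD27+ and CD11b+ cells passed among CD69+ cells (-0.99, adjusted p = 0.0349), and Siva1 (adjusted p = 0.0765) did not.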
